A study of Homo sapiens with 480 samples.

Results

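Aminoacyl-tRNA synthetases are the enzymes that load each transfer RNA with its amino acid before the ribosome uses it. The 35 nuclear genes described here were chosen by name. They comprise 19 synthetases of the cytosol (symbols ending in 1, with FARSA and FARSB, the alpha and beta subunits of the phenylalanine enzyme) and 16 of mitochondria (symbols ending in 2). All 35 were among the 20302 features of the expression table, and all 35 passed the filter on low counts.

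Cytosolic and mitochondrial synthetases serve separate translation systems: the cytosolic enzymes supply the ribosomes that make nearly all cellular protein, and the mitochondrial enzymes supply the organelle's own ribosomes, which make a few subunits of the respiratory chain. In animal cells, several cytosolic synthetases are held in a multisynthetase complex by the scaffold proteins AIMP1, AIMP2 and EEF1E1, whereas the others are free-standing. Many cytosolic synthetase genes are known targets of ATF4, the transcription factor of the amino acid stress response, and of MYC. GARS1 and KARS1 are exceptions to the division by symbol, because each gene makes both the cytosolic and the mitochondrial form of its enzyme.

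The study modelled HIV latency in 2 human lines and sequenced the full-length cDNA of single cells: Jurkat, derived from a CD4 T cell leukaemia, and J-Lat A2, a Jurkat clone with an integrated and mostly silent construct made from HIV. The 6 groups were J-Lat A2 with 1 uM SAHA (vorinostat, an inhibitor of histone deacetylases), J-Lat A2 with 1 ug/mL PMA (a phorbol ester, an activator of protein kinase C), J-Lat A2 with 0.1% v/v DMSO (the vehicle), and Jurkat with the same 3 agents, each for 24 h. Of 480 wells, 410 were kept: in J-Lat A2 with SAHA 67 of 120 from the first batch and 68 of 81 from the second, 79 of 81 for PMA and 94 of 96 for DMSO in the same line, and all 36, 36 and 30 for Jurkat with SAHA, PMA and DMSO. Counts were summed per group and batch into 9 sums of 4682181 to 36603816 counts, with 2 batches for J-Lat A2 with SAHA, J-Lat A2 with DMSO and Jurkat with DMSO and the second batch alone for the other groups. J-Lat A2 is a single clone, so a difference from Jurkat cannot be told apart from a difference between clones. Levels are counts per 1000000 (CPM), a share of the cell's measured RNA, so that the amount of RNA per cell was not measured.

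T cell markers were detected in every sum, except CD4, which had a count in 1 of 9 sums. The 10 T cell markers together reached 587 to 750 CPM in J-Lat A2 with SAHA, 4435 CPM with PMA and 2546 to 2566 CPM with DMSO. In Jurkat they reached 669 CPM with SAHA, 4804 CPM with PMA and 2364 to 2795 CPM with DMSO. The markers of other lineages MS4A1, CSF1R, HBB, EPCAM and CDH1 were at 0 in all 9 sums. Other markers on those lists were not. HBA1 had counts in 3 of 9 sums, at 2.11 and 2.302 CPM in the J-Lat A2 sums with SAHA and 0.695 CPM in Jurkat with SAHA, and was at 0 with PMA and DMSO. LYZ and KRT8 had counts in 5 of 9 sums each and CD14 in 1 of 9, all under 1 CPM. CD79A was present in all 9, at 3.45 to 8.45 CPM in J-Lat A2 with SAHA, 90.9 CPM with PMA and 61.2 to 67.4 CPM with DMSO, and at 0.321, 48.1 and 4.86 to 10.1 CPM in Jurkat with SAHA, PMA and DMSO. The median share of counts from mitochondrial genes per cell was 4.91% and 4.94% in the batches of J-Lat A2 with SAHA, 3.96% with PMA and 3.59% and 3.66% with DMSO, and was 4.51%, 3.67% and 3.61% and 3.20% in Jurkat with SAHA, PMA and DMSO. The part of these differences in the results that follow was not tested.

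Short stretches of promoter sequence are shown first, because they carry letters that ATF4, named above, or ETS family factors can bind. RefSeq promoters (GRCh38.p14, 250 bases before the start) were matched by symbol for 30 of the 35 genes. The letters TGATGNAA, the core of the element through which ATF4 acts with C/EBP proteins, were found on either strand in 4 of those 30, against 2.49% of the 10721 tested genes with a promoter entry. They are given below on the strand of the gene, with the match in capitals. AARS1 lies at chr16:70289675-70289704 on the minus strand, IARS1 at chr9:92293698-92293721 on the minus strand, GARS1 at chr7:30594834-30594863 on the plus strand, and YARS2 at chr12:32756076-32756105 on the minus strand.
AARS1: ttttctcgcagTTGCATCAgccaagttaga
IARS1: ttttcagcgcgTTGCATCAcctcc
GARS1: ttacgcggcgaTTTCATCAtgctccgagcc
YARS2: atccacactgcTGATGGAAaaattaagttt

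The matches began 13 bases (IARS1) and 33 bases (GARS1) before the RefSeq start, and farther upstream in AARS1 and YARS2. By GENCODE 29, the IARS1 and GARS1 windows also lay in an exon of another transcript of the same gene, and the AARS1 window lay in an exon of DDX19B on the opposite strand. IARS1, GARS1 and YARS2 were among the genes that fell with SAHA in J-Lat A2 (below), and AARS1 was not. Of the 11 genes that fell there and have a promoter entry, 3 held these letters. The other 8 did not hold them in this window.

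The letters CCGGAAG, the core that ETS family factors bind, were found in 16 of the 30 promoters, in 9 of 16 cytosolic and 7 of 14 mitochondrial genes, against 18.5% of the tested genes. They stood in both starts of the divergent pair HARS1 and HARS2, the cytosolic and mitochondrial histidine enzymes, whose starts face away from each other with 84 bases between them. Both matches are given on the plus strand, at chr5:140691371-140691390 beside the HARS1 start and at chr5:140691436-140691454 beside the HARS2 start, with the match in capitals; both windows also lie in annotated HARS1 exons.
HARS1 side: gaCTTCCGGctatcgagtcg
HARS2 side: tccggctcctcCCGGAAGt

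The E-box CACGTG that MYC binds was found in 3 of 30 promoters (IARS1, EARS2 and MARS2), against 11.1% of the tested genes. The cyclic AMP response element TGACGTCA was found in 0 of 30, against 3.40%. A match of letters describes the window and does not show that a factor binds there.

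Cytosolic synthetase transcripts were far more abundant than mitochondrial ones in every group. In J-Lat A2 with DMSO, the median over 19 cytosolic genes was 143.4 CPM per kb of transcript and that over 16 mitochondrial genes was 16.9 CPM per kb. The 3 highest cytosolic genes per length were GARS1 at 470 ± 63.7 CPM per kb, SARS1 (serine) at 389 ± 39.6 and FARSA at 362 ± 22.1 (SD, n = 2 batches). The 3 highest mitochondrial genes were IARS2 (isoleucine) at 77.2 ± 8.94 CPM per kb, RARS2 (arginine) at 40.4 ± 4.58 and FARS2 (phenylalanine) at 40.3 ± 5.88 (SD, n = 2 batches).

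The classes overlapped at a few genes. IARS2 stood below 12 cytosolic genes and above 7, and VARS1, the cytosolic valine enzyme, was the lowest cytosolic gene at 3.10 ± 0.782 CPM per kb. VARS2, its mitochondrial counterpart, was the lowest of all at 1.03 CPM per kb. These are levels as counted. VARS1 and VARS2 both lie on chromosome 6, and whether reads of either gene were lost or shared in mapping was not tested. In this order of 35 genes, 10 of the 34 steps between neighbours exceeded the sum of both SDs, among them the steps below KARS1 (lysine), TARS1 (threonine), FARSB and WARS1 (tryptophan). The steps among GARS1, SARS1, FARSA and KARS1 at the top did not.

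Summed over the class, cytosolic synthetases took the smallest share of RNA in the drug-treated cells. The 19 genes together held 5633 ± 366 CPM in J-Lat A2 with SAHA (SD, n = 2 batches), 7041 CPM with PMA and 9728 ± 273 CPM with DMSO (n = 2). In Jurkat they held 5853 CPM with SAHA, 5660 CPM with PMA and 8565 ± 216 CPM with DMSO (n = 2). The sums of the treated groups and of DMSO did not overlap in either line. They were 0.594 and 0.564 times the DMSO sum of the same batch in J-Lat A2 with SAHA, 0.738 times with PMA, and 0.671 and 0.649 times in Jurkat with SAHA and PMA.

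The mitochondrial class moved less as a sum, though by a small margin with PMA in J-Lat A2. Its 16 genes held 759 ± 12.8 CPM in J-Lat A2 with SAHA, 743 CPM with PMA and 923 ± 15.2 CPM with DMSO, and 759, 883 and 986 ± 63.9 CPM in Jurkat with SAHA, PMA and DMSO. They were 0.841 and 0.803 times the DMSO sum of the same batch in J-Lat A2 with SAHA, 0.796 times with PMA, and 0.807 and 0.939 times in Jurkat with SAHA and PMA. The ratio of the cytosolic to the mitochondrial sum was therefore 7.42 ± 0.358 in J-Lat A2 with SAHA, 9.47 with PMA and 10.5 ± 0.469 with DMSO. In Jurkat it was 7.71 with SAHA, 6.41 with PMA and 8.71 ± 0.784 with DMSO. These class values are descriptions with no test. Genes of high level weigh most in a sum: IARS2 held 275 CPM of the 923 CPM in J-Lat A2 with DMSO. The median log2 changes over genes, given below, lay near each other in Jurkat and farther apart in J-Lat A2.

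**Figure D1:**
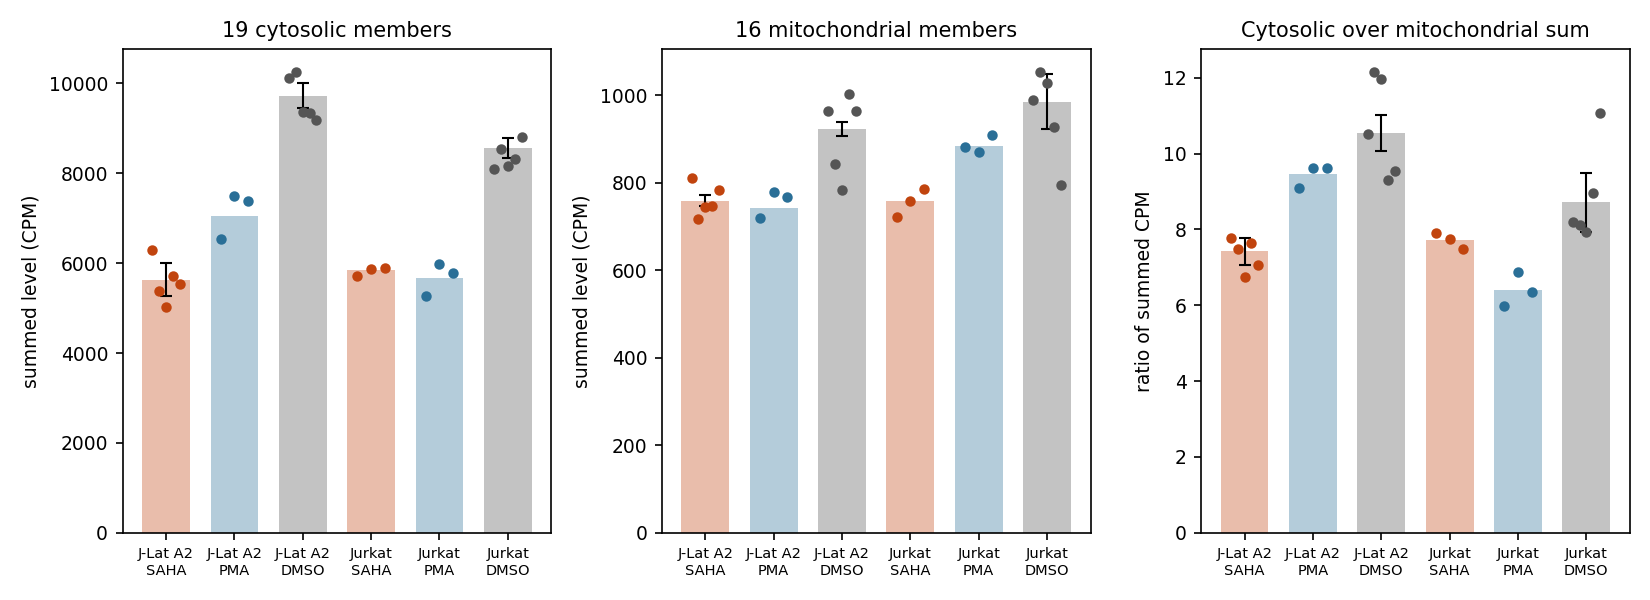
Summed level of the 19 cytosolic and the 16 mitochondrial genes (CPM) and their ratio, by line and agent. Bars are means over batches, error bars the SD where a group has 2 batches, and points the sums of single plates. The cytosolic sum of each SAHA or PMA group lies below that of its DMSO group (5633 against 9728 CPM in J-Lat A2 with SAHA).

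The first comparison asked which synthetases changed with SAHA in J-Lat A2. At an adjusted p under 0.05, 12 of 19 cytosolic and 1 of 16 mitochondrial genes fell, and 0 rose. Of all 13560 tested genes, 4.90% fell, and of the 2194 with a mean of at least 100 CPM, 17.5% fell. In that higher range of level, 12 of 18 cytosolic and 0 of 2 mitochondrial genes fell. The median log2 change was -1.0005 over the cytosolic genes, -0.44 over the mitochondrial genes and 0.12 over all tested genes. No gene rose among the 35, against 3.53% of all tested genes. The median standard error was 0.17 for a cytosolic gene and 0.38 for a mitochondrial gene. The estimate was below 0 for 17 of 19 cytosolic and 13 of 16 mitochondrial genes, against 44.1% of all tested genes, and the difference between the classes was not tested.

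FARSA and LARS1 (leucine) had the largest falls among the cytosolic genes. FARSA stood at 328 and 275 CPM in the SAHA batches, against 713 and 778 CPM in the DMSO batches. LARS1 stood at 151.9 and 135.3 CPM with SAHA, against 400 and 319 CPM with DMSO. For both, each SAHA sum lay below both DMSO sums. FARSA fell by 1.30 ± 0.16 on the log2 scale (standard error) with an adjusted p = 0.00123 by edgeR's quasi-likelihood test with Benjamini-Hochberg adjustment, which was used in all comparisons, and LARS1 fell by 1.32 ± 0.17 (adjusted p = 0.00187). FARSB, the partner subunit of FARSA, had 288 and 272 CPM with SAHA, against 449 and 439 CPM with DMSO, and fell by 0.67 ± 0.16 (adjusted p = 0.0299).

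Among the other free-standing enzymes, GARS1 (glycine), NARS1 (asparagine), YARS1 (tyrosine), CARS1 (cysteine) and TARS1 fell. GARS1 had 552 and 604 CPM with SAHA, against 1120 and 1357 CPM with DMSO (log2 change -1.09 ± 0.14, adjusted p = 0.00144). NARS1 had 276 and 208 CPM with SAHA, against 599 and 537 CPM with DMSO (-1.24 ± 0.16, adjusted p = 0.00195). YARS1 had 317 and 310 CPM with SAHA, against 711.9 and 680 CPM with DMSO (-1.15 ± 0.16, adjusted p = 0.00248). For these 3 enzymes the SAHA and DMSO sums were well separated.

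CARS1 had 75.9 and 68.4 CPM with SAHA, against 200 and 133.6 CPM with DMSO (-1.19 ± 0.22, adjusted p = 0.00957). TARS1 had 346 and 274 CPM with SAHA, against 627 and 610 CPM with DMSO (-1.01 ± 0.15, adjusted p = 0.0042). The SAHA and DMSO sums of neither gene overlapped. Of the 12 cytosolic genes outside the complex, 7 fell.

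**Figure D2:**
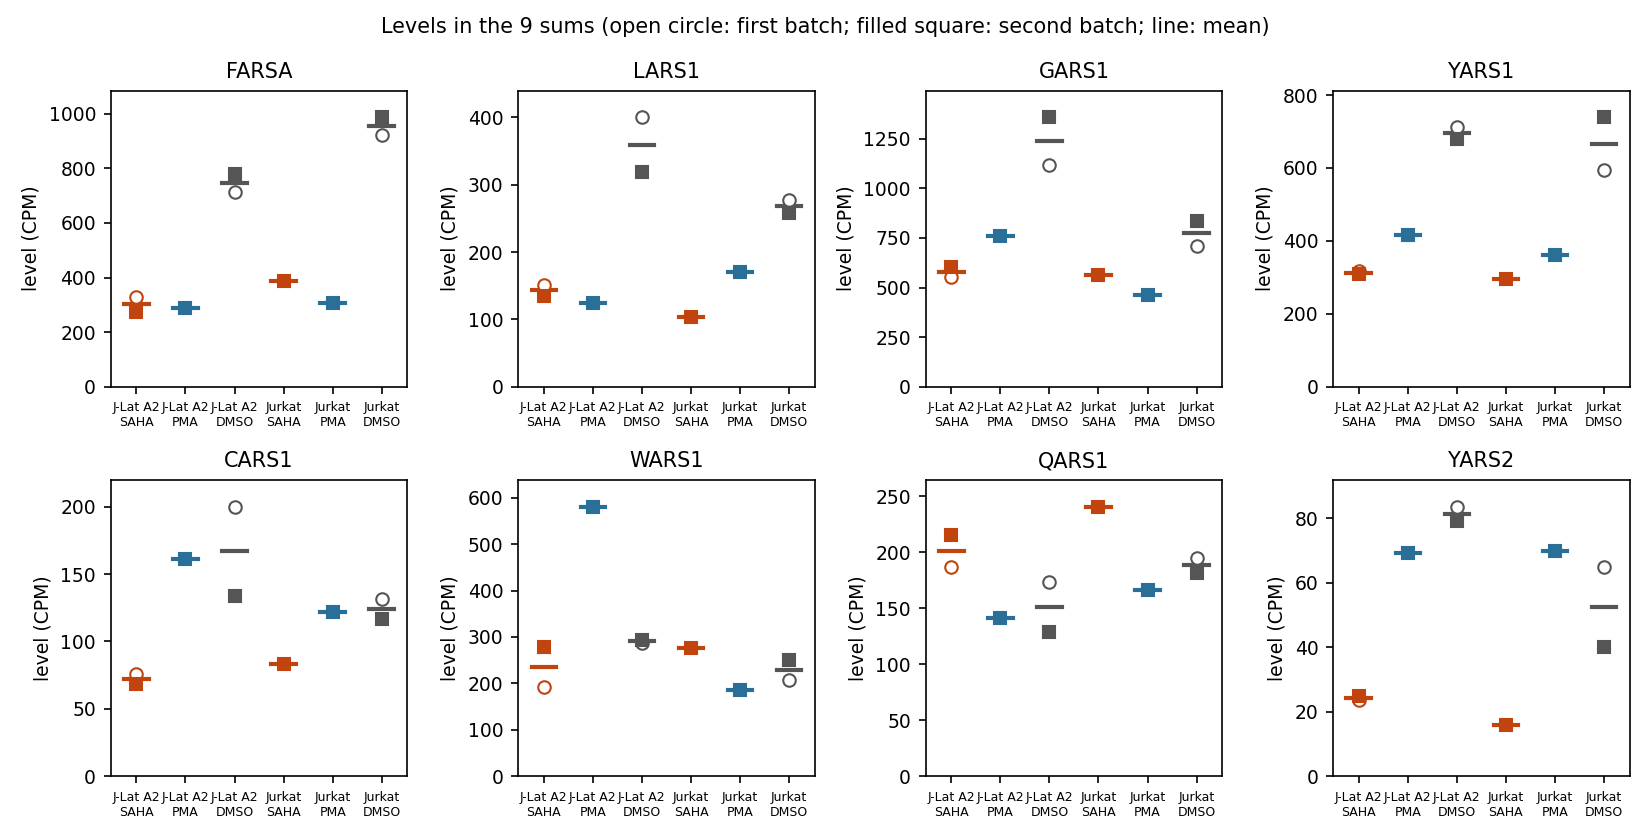
Levels (CPM) of 8 synthetase genes in the 9 sums, by line and agent. Circles are the first batch, squares the second, and lines the mean of a group. FARSA is below its DMSO sums in every treated group, whereas WARS1 is highest in J-Lat A2 with PMA (581 CPM), QARS1 is not below DMSO with SAHA, and YARS2 is lowest in the SAHA groups.

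The multisynthetase complex did not fall as a block. Of its 7 synthetases listed, 5 fell with SAHA in J-Lat A2: LARS1, MARS1 (methionine), IARS1 (isoleucine), EPRS1 (the fused glutamate and proline enzyme) and KARS1. MARS1 had 406 and 282 CPM with SAHA, against 704.9 and 765 CPM with DMSO (log2 change -1.11 ± 0.18, adjusted p = 0.00516). MARS1 overlaps DDIT3 and ARHGAP9 on the opposite strand, as KARS1 does TERF2IP and YARS1 does S100PBP. In all, 12 of the 35 genes overlap another measured gene, and the sources used here do not state whether strand was used in counting.

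IARS1 had 661 and 417 CPM with SAHA, against 1230 and 909 CPM with DMSO (-1.0005 ± 0.19, adjusted p = 0.0107). EPRS1 had 208 and 227 CPM with SAHA, against 412 and 317 CPM with DMSO (-0.73 ± 0.18, adjusted p = 0.0369). KARS1 had 552 and 595 CPM with SAHA, against 814 and 825 CPM with DMSO (-0.52 ± 0.14, adjusted p = 0.0475). The sums of these 3 genes did not overlap, and KARS1 was the smallest change called.

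QARS1 (glutamine) and RARS1 (arginine), the remaining complex members, did not pass the test and had values above 0. QARS1 had 186.4 and 215 CPM with SAHA, against 173.04 and 129.1 CPM with DMSO (log2 change 0.42 ± 0.20, adjusted p = 0.285), and RARS1 had 362 and 424 CPM with SAHA, against 346 and 312 CPM with DMSO (0.26 ± 0.17, adjusted p = 0.456). Both were higher with SAHA than with DMSO in each batch. The cytosolic genes outside the complex that did not pass were AARS1 (alanine, -0.63), VARS1 (-1.19, with an SE of 0.74), SARS1 (-0.34), WARS1 (-0.33) and HARS1 (-0.13). By catalytic class, which divides the enzymes by the fold of their active site, 5 of 9 class I and 6 of 9 class II cytosolic genes fell. EPRS1 holds an enzyme of each class and was counted in neither.

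Among the mitochondrial genes, YARS2 (tyrosine) fell. It had 23.6 and 24.8 CPM in J-Lat A2 with SAHA, against 83.6 and 79.1 CPM with DMSO (log2 change -1.74 ± 0.33, adjusted p = 0.0107). The groups were far apart, and single plates spanned 13.9 to 32.1 CPM for SAHA and 54.6 to 98.9 CPM for DMSO. YARS2 overlaps DNM1L on the opposite strand over 18161 bases. WARS2 (tryptophan) had 7.80 and 11.8 CPM with SAHA, against 24.2 and 36.1 CPM with DMSO, and did not pass (-1.62 ± 0.52, adjusted p = 0.0913).

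The 3 mitochondrial genes with the highest level per kb did not pass. IARS2 had 242 and 230 CPM with SAHA, against 252 and 297 CPM with DMSO (-0.22 ± 0.20, adjusted p = 0.62). RARS2 had 94.1 and 132.9 CPM with SAHA, against 67.5 and 79.3 CPM with DMSO (0.61 ± 0.23, adjusted p = 0.15). FARS2 had 57.4 and 24.0 CPM with SAHA, against 61.1 and 75.2 CPM with DMSO (-0.81 ± 0.40, adjusted p = 0.294). RARS2 was higher with SAHA than with DMSO in both batches.

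The direction was the same across plates for most of the genes that fell. Plate by plate, 12 of 19 cytosolic genes were lower with SAHA than with DMSO on each of the 5 plates, and these included 11 of the 12 that fell; FARSB was lower on 4 of 5. Of the 16 mitochondrial genes, 3 were lower on all 5 plates. The calls rest on sums of these same plates, so this agreement, like the separation of the sums, gives no added support. The same counts over all tested genes were not made. Leaving out the first batch of J-Lat A2 with DMSO left 8 genes called, and leaving out its second batch left 7, against 13 with all sums. With each cell given equal weight (limma on the log2 of mean CPM), 0 of the 35 passed, 17 had an unadjusted p under 0.05, and 0 of all 13560 genes passed.

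**Figure D3:**
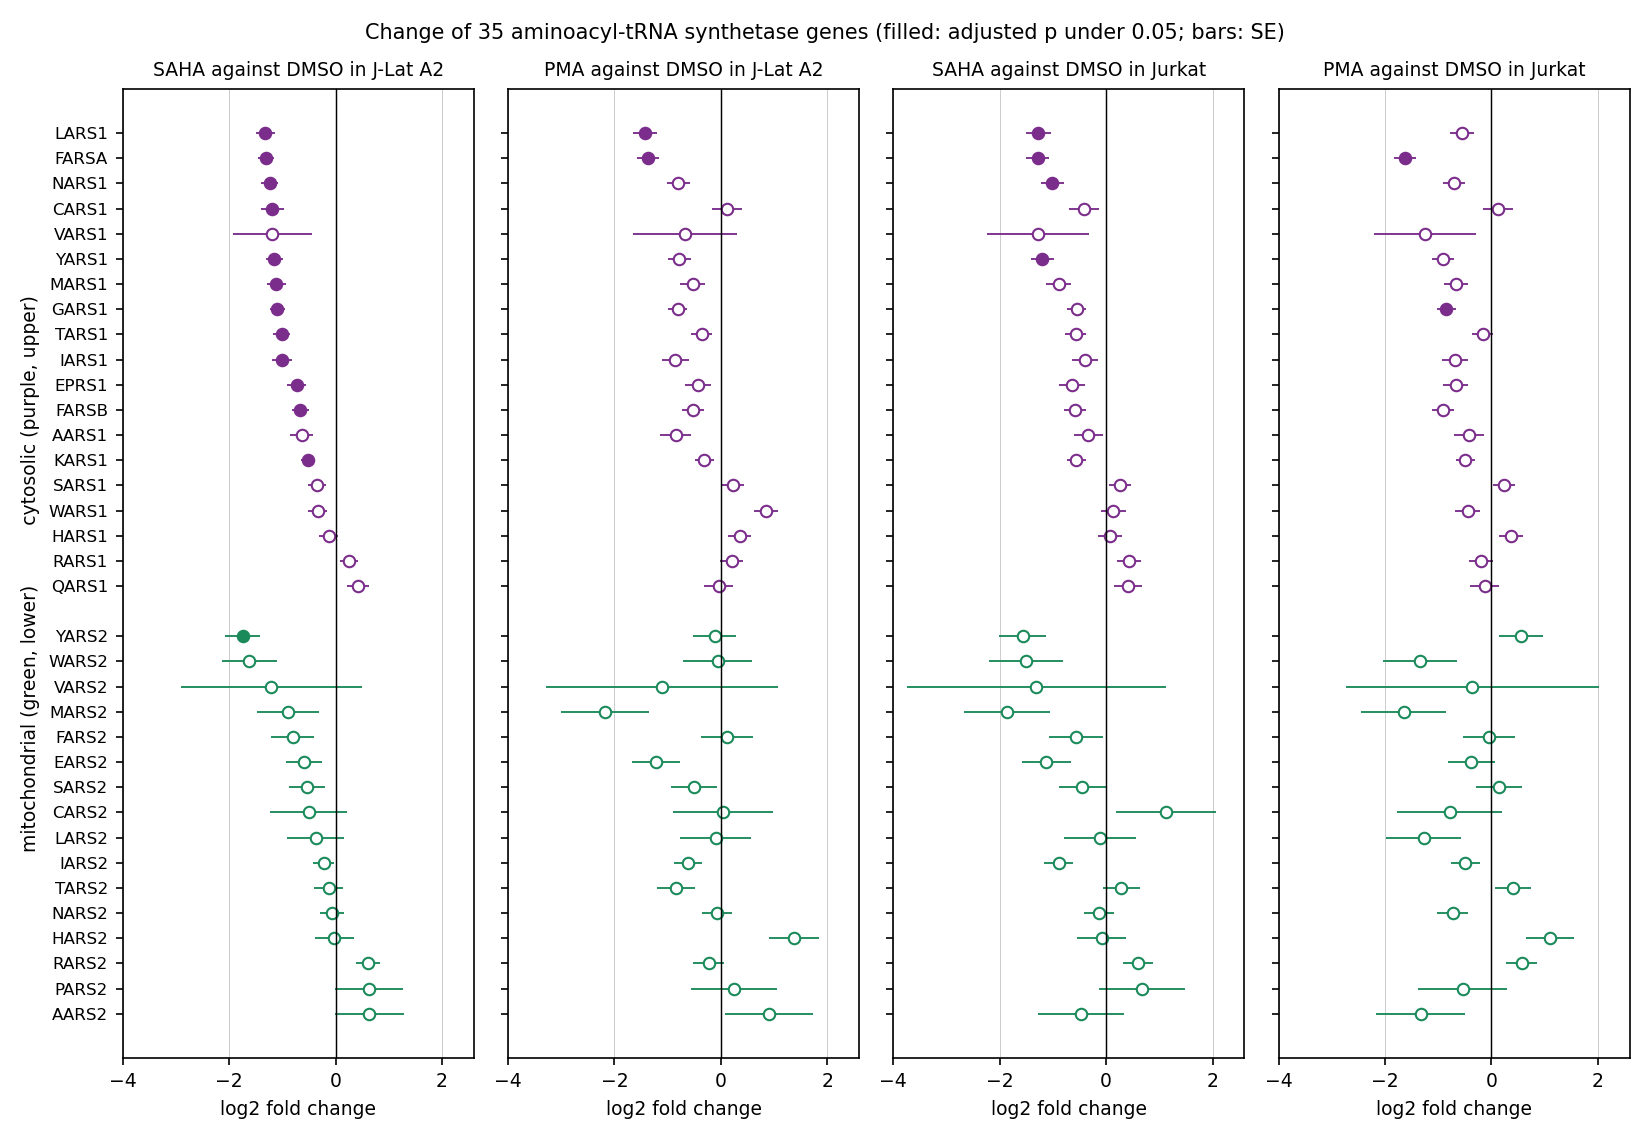
Log2 fold change of the 35 genes for SAHA and PMA against DMSO in J-Lat A2 and Jurkat. Points are estimates and bars the SE; filled points passed at an adjusted p under 0.05, with cytosolic genes above and mitochondrial genes below. In J-Lat A2 with SAHA, 12 of 19 cytosolic points are filled, against 1 of 16 mitochondrial points.

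With SAHA in Jurkat fewer genes passed. FARSA, LARS1, YARS1 and NARS1 fell, 4 of 19 cytosolic and 0 of 16 mitochondrial genes, against 2.37% of all genes tested (9.39% of those of at least 100 CPM). All 4 had also fallen in J-Lat A2. FARSA had 389 CPM with SAHA, against 920 and 986 CPM with DMSO (log2 change -1.29 ± 0.21, adjusted p = 0.00938). LARS1 had 103.4 CPM with SAHA, against 277 and 259 CPM with DMSO (-1.27 ± 0.23, adjusted p = 0.0157).

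YARS1 had 297 CPM with SAHA in Jurkat, against 594 and 739 CPM with DMSO (-1.20 ± 0.21, adjusted p = 0.014). NARS1 had 249 CPM with SAHA, against 535 CPM in both DMSO batches (-1.01 ± 0.22, adjusted p = 0.0296). Each SAHA sum lay below both DMSO sums. YARS2 did not pass, with 15.99 CPM with SAHA against 64.96 and 39.9 CPM with DMSO (-1.57 ± 0.45, adjusted p = 0.0899). The median log2 change was -0.56 over the cytosolic, -0.46 over the mitochondrial and 0.11 over all tested genes. Without the second batch of Jurkat with DMSO, 0 of the 35 passed.

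With PMA in J-Lat A2, FARSA and LARS1 fell, 2 of 19 cytosolic and 0 of 16 mitochondrial genes. Of all genes tested 0.804% fell, and of those of at least 100 CPM 4.06%. Whether a count of 2 differs from the latter share was not tested. FARSA had 288 CPM with PMA, against 713 and 778 CPM with DMSO (log2 change -1.37 ± 0.21, adjusted p = 0.0105). LARS1 had 124.3 CPM with PMA, against 400 and 319 CPM with DMSO (-1.43 ± 0.23, adjusted p = 0.0144). Both PMA sums lay well below the DMSO sums.

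GARS1, with 759 CPM with PMA against 1120 and 1357 CPM with DMSO, narrowly missed the threshold (-0.81 ± 0.18, adjusted p = 0.0557). CARS1, which had fallen with SAHA, stood at 161.03 CPM with PMA, within its DMSO range of 133.6 to 200 CPM (0.12 ± 0.28, adjusted p = 0.977). The median log2 change was -0.52 over the cytosolic, -0.11 over the mitochondrial and 0.04 over all tested genes, and 12 cytosolic genes were lower and 4 higher on each of 3 plates. Without the second batch of J-Lat A2 with DMSO 0 passed, and without the first or second batch of J-Lat A2 with SAHA, which enters the estimate of the spread, 6 and 7 passed.

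With PMA in Jurkat, FARSA and GARS1 fell, 2 of 19 cytosolic and 0 of 16 mitochondrial genes. Of all genes tested 1.11% fell, and of those of at least 100 CPM 5.56%, so a count of 2 lies near the background. FARSA had 308 CPM with PMA, against 920 and 986 CPM with DMSO (log2 change -1.63 ± 0.21, adjusted p = 0.0047). GARS1 had 462 CPM with PMA, against 709 and 837 CPM with DMSO (-0.85 ± 0.18, adjusted p = 0.0433). FARSA was thus called in all 4 comparisons of an agent with DMSO. The SAHA and PMA comparisons of a line share its DMSO sums, so they are not independent of each other.

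LARS1 did not pass with PMA in Jurkat, with 170 CPM against 277 and 259 CPM with DMSO (-0.56 ± 0.22, adjusted p = 0.301). The median log2 change was -0.56 over the cytosolic, -0.43 over the mitochondrial and 0.07 over all tested genes. HARS2 had the highest log2 change among the mitochondrial genes with PMA in both lines. It had 77.8 CPM against 79.3 and 21.7 CPM with DMSO in J-Lat A2, and 85.2 CPM against 68.5 and 46.9 CPM with DMSO in Jurkat. It did not pass in either line (1.38 ± 0.47, adjusted p = 0.235, and 1.09 ± 0.45, adjusted p = 0.316). Its DMSO batches lay far apart, and it overlaps HARS1 and ZMAT2. The count of 2 was 1 without either batch of J-Lat A2 with DMSO or the second batch of Jurkat with DMSO, and 4 to 5 without either batch of J-Lat A2 with SAHA or the first batch of Jurkat with DMSO.

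Set against each other in J-Lat A2, PMA and SAHA differed for 2 cytosolic genes, CARS1 and WARS1, both higher with PMA, and 0 of 16 mitochondrial genes. Of all genes tested, 2.25% were higher with PMA, and of those of at least 100 CPM, 6.56%. In that range 2 of 18 cytosolic genes were higher, so this count lies near the background. CARS1 had 161.03 CPM with PMA, against 75.9 and 68.4 CPM with SAHA (log2 difference 1.31 ± 0.27, adjusted p = 0.0264). WARS1 had 581 CPM with PMA, against 191.2 and 278 CPM with SAHA (1.19 ± 0.22, adjusted p = 0.0173). For both genes the PMA sum lay above both SAHA sums. Without the first batch of J-Lat A2 with SAHA 4 genes passed, and without the second 1 passed.

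WARS1, which interferons are known to induce, had the lowest p among the 35 for a difference in PMA response between the lines. In J-Lat A2 it had 581 CPM with PMA, against 288 and 294 CPM with DMSO, with plates at 585 to 601 CPM and 238 to 334 CPM. In Jurkat it had 184.7 CPM with PMA, against 208 and 250 CPM with DMSO, with plates at 175.4 to 191.6 CPM and 193.7 to 267 CPM. The PMA and DMSO plates did not overlap in either line, and lay in opposite order. In Jurkat, however, the highest PMA plate (191.6 CPM) was just below the lowest DMSO plate (193.7 CPM). WARS1 was picked by its p from these same counts, so the separation of plates gives no added support. Neither PMA change passed (0.85 ± 0.23, adjusted p = 0.11, in J-Lat A2; -0.45 ± 0.23, adjusted p = 0.471, in Jurkat). Over 15 other settings the adjusted p in J-Lat A2 ranged from 0.000531 to 0.803, and 5 of them passed.

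The difference between these WARS1 changes was 1.30 ± 0.31 on the log2 scale and did not pass (adjusted p = 1). Over 15 other settings it ranged from 1.12 to 1.48, and its adjusted p from 0.0206 to 1. The setting with plates as units was the one that passed. WARS1 overlaps WDR25 on the opposite strand over 388 bases.

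The lines were compared directly with DMSO. Of the 35 genes 0 differed, against 0.398% of all genes tested, and 5 cytosolic genes and 1 mitochondrial gene had an unadjusted p under 0.05. GARS1 came nearest, with 1120 and 1357 CPM in J-Lat A2 against 709 and 837 CPM in Jurkat (log2 difference 0.68 ± 0.14, adjusted p = 0.0818). Its sums did not overlap. Over 15 other settings its adjusted p ranged from 0.000436 to 0.618, and it passed in 5 of them.

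The response of each gene was also compared between the lines. For SAHA, 0 of 35 genes passed the test of a difference in response between J-Lat A2 and Jurkat, against 0.00737% of all genes, and 2 had an unadjusted p under 0.05. For PMA, 0 of 35 passed, against 0.0221% of all genes, and 3 had an unadjusted p under 0.05. The larger count of genes called with SAHA in J-Lat A2 than in Jurkat is therefore not shown to be a difference in response. FARSA, for example, differed by -0.02 ± 0.26 between the lines with SAHA and LARS1 by -0.04 ± 0.28. The median difference for SAHA was -0.20 over the cytosolic genes.

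For 15 amino acids a cytosolic and a separate mitochondrial gene were paired. EPRS1 stands in both the glutamate and the proline pair, so these 2 pairs share a cytosolic value. Within these pairs, the cytosolic change with SAHA in J-Lat A2 was the lower in 11 of 15, with a median difference of -0.35 on the log2 scale. The asparagine pair was the clearest case among well-measured genes, with NARS1 at -1.24 ± 0.16 and NARS2 at -0.07 ± 0.22. For isoleucine the values were -1.0005 ± 0.19 (IARS1) and -0.22 ± 0.20 (IARS2), and for threonine -1.01 ± 0.15 (TARS1) and -0.13 ± 0.27 (TARS2).

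Tyrosine and tryptophan ran the other way, and serine did so by less (SARS1 -0.34 ± 0.16, SARS2 -0.53 ± 0.34). The valine changes were nearly equal (VARS1 -1.19 ± 0.74, VARS2 -1.21 ± 1.70). YARS1 was at -1.15 ± 0.16 and YARS2 at -1.74 ± 0.33, and WARS1 was at -0.33 ± 0.18 and WARS2 at -1.62 ± 0.52. The cytosolic change was the lower in 7 of 15 pairs with PMA in J-Lat A2, 6 of 15 with SAHA in Jurkat and 8 of 15 with PMA in Jurkat. The pairs were not tested as a set.

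**Figure D4:**
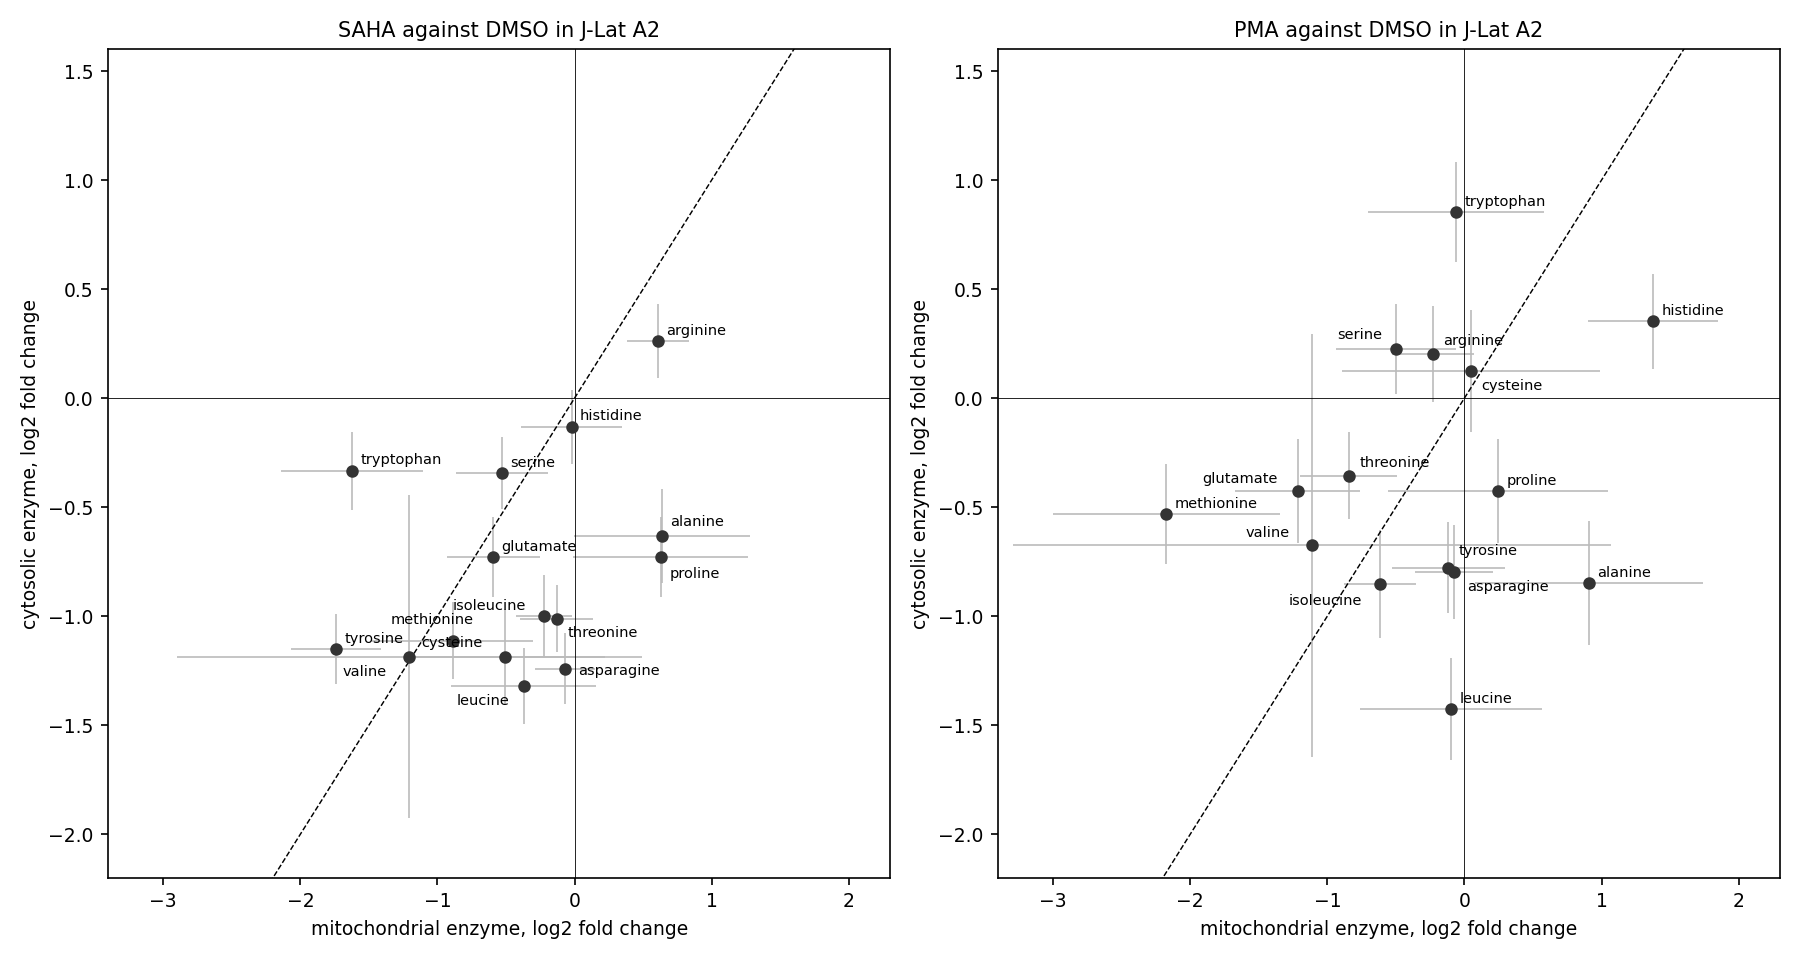
Log2 change of the cytosolic enzyme (vertical axis) against that of the mitochondrial enzyme (horizontal axis) for 15 amino acids, with SAHA (left) and PMA (right) against DMSO in J-Lat A2. Bars are the SE and the dashed line marks equal change. With SAHA, 11 of 15 points lie below the line, and with PMA 7 of 15.

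The level of the cytosolic class was also described cell by cell. The median summed cytosolic level per cell was 5638 and 5128 CPM in the batches of J-Lat A2 with SAHA, 6624 CPM with PMA and 10185 and 9118 CPM with DMSO. In Jurkat it was 5709 CPM with SAHA, 5572 CPM with PMA and 8829 and 8376 CPM with DMSO. The upper quartile of J-Lat A2 cells with SAHA, at 6595 and 6056 CPM, lay below the lower quartile of those with DMSO, at 9181 and 8049 CPM. Single cells are not replicates of a treatment, so these values were not tested. They come from the same wells as the class sums and give no added support.

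Fewer synthetases were detected per cell with SAHA and PMA in J-Lat A2, as were fewer genes of any kind. The median number of genes per cell was 4529 and 4374.5 in J-Lat A2 with SAHA, 4484 with PMA and 5124 and 4684 with DMSO, before thinning; its part in the counts of synthetases was not tested. With each cell thinned to 100000 counts, which are reads and not molecules, a median of 15 and 15 of the 19 cytosolic genes was detected in J-Lat A2 with SAHA, 16 with PMA and 18 and 17 with DMSO. Of the 16 mitochondrial genes, a median of 5 and 5 was detected with SAHA, 5 with PMA and 8 and 7 with DMSO. This left out 14 and 4 cells with SAHA, 2 with PMA and 3 and 0 with DMSO that were too shallow. In Jurkat the thinned medians were 17 and 17 cytosolic genes with SAHA and PMA and 18 and 18 with DMSO, and 7 and 7 mitochondrial genes with SAHA and PMA and 12 and 8 with DMSO. Without thinning the medians in J-Lat A2 were 15 and 15.5 cytosolic genes with SAHA, 16 with PMA and 18 and 17 with DMSO.

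Genes that work beside the synthetases were described by list. The shares of all tested genes that fell were 4.90% with SAHA and 0.804% with PMA in J-Lat A2, and 2.37% with SAHA and 1.11% with PMA in Jurkat. Among genes of at least 100 CPM the shares were 17.5%, 4.06%, 9.39% and 5.56% in the same order. Of the scaffolds of the complex, 2 of 3 fell in J-Lat A2 with SAHA, against 17.5% of genes of at least 100 CPM: AIMP2 (log2 change -1.08 ± 0.19, adjusted p = 0.00791) and EEF1E1 (-1.29 ± 0.21, adjusted p = 0.00598). In Jurkat with SAHA 2 of 3 fell, EEF1E1 (-1.28 ± 0.28) and AIMP1 (-1.22 ± 0.28), and with PMA 1 of 3, AIMP2 (-1.37 ± 0.26). With PMA in J-Lat A2 0 of 3 passed.

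Of 14 genes of tRNA maturation and export, 6 fell with SAHA in J-Lat A2, against 17.5% of genes of at least 100 CPM. They included XPOT, the export receptor of tRNA (-1.58 ± 0.23, adjusted p = 0.00305), and ELAC2, which trims the tRNA 3′ end (-0.85 ± 0.20, adjusted p = 0.0267). In Jurkat with SAHA 3 of 14 fell, against 9.39%, with XPOT at -1.28 ± 0.30 and ELAC2 at -1.10 ± 0.26, and with PMA 0 of 14 passed in either line. Of 5 cytosolic elongation factor genes, which serve the delivery of charged tRNA to the ribosome, 2 fell with SAHA in J-Lat A2, against 17.5% of genes of at least 100 CPM: EEF1A1 (-0.55 ± 0.11) and EEF1B2 (-0.84 ± 0.16). The other 3 had estimates above 0, and the median of the list was 0.21.

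Of 23 amino acid stress genes, 8 fell, against 17.5% of genes of at least 100 CPM, and 0 rose with SAHA in J-Lat A2. PSAT1 and PHGDH, enzymes of serine synthesis, fell by 1.86 ± 0.16 (adjusted p = 0.000206) and 1.36 ± 0.24 (adjusted p = 0.00809). PSAT1 also fell by 1.31 ± 0.21 with PMA in J-Lat A2, by 1.11 ± 0.20 with SAHA in Jurkat and by 1.80 ± 0.21 with PMA in Jurkat. In those comparisons 1, 3 and 2 of the 23 fell, against 4.06%, 9.39% and 5.56% of genes of at least 100 CPM. All 3 counts were near that background. Of the 23, 1 rose with SAHA in Jurkat, where 1.84% of all genes rose. SLC3A2, the heavy chain of amino acid transporters, was among those that fell with SAHA in Jurkat (-1.83 ± 0.20). It was higher with PMA than with SAHA in J-Lat A2 by 2.16 ± 0.19 (adjusted p = 0.000174). With DMSO, ASNS, the asparagine synthetase that makes the amino acid rather than charging a tRNA, was higher in J-Lat A2 than in Jurkat by 3.96 ± 0.20 on the log2 scale (adjusted p = 1.07e-05), while NARS1 differed by 0.08 ± 0.16 (adjusted p = 0.969).

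Mitochondrial translation genes were mixed. Of 78 mitochondrial ribosomal protein genes, 22 fell and 1 rose with SAHA in J-Lat A2, against 17.5% of genes of at least 100 CPM that fell. Those that fell included MRPL3 (-0.64 ± 0.15) and MRPL37 (-0.69 ± 0.16). In Jurkat 5 of 78 fell with SAHA, a share between the 2.37% of all tested genes and the 9.39% of those of at least 100 CPM. With PMA 0 passed in either line. Of 4 partners that charge mitochondrial tRNA by transamidation or formylation, QRSL1 fell with SAHA in J-Lat A2 (-1.04 ± 0.24, adjusted p = 0.0242). It encodes a subunit of the glutaminyl-tRNA amidotransferase, and 4.90% of all tested genes fell there. Of 4 mitochondrial elongation factors, GFM2, which recycles ribosomes, rose with SAHA in J-Lat A2 (1.02 ± 0.23, adjusted p = 0.0247). In that comparison 3.53% of all tested genes rose, and 10.4% of those of at least 100 CPM. MRPL9, among the 5 that fell with SAHA in Jurkat (-1.14 ± 0.22), was higher with PMA than with SAHA in J-Lat A2 (1.14 ± 0.21). MRPS6, another mitochondrial ribosomal protein gene, was lower in that comparison (-1.25 ± 0.25). Among genes of at least 100 CPM, 6.56% were higher there and 5.61% lower. The median log2 change with SAHA in J-Lat A2 was -1.08 for the scaffolds, -0.96 for tRNA maturation and export, -1.44 for the stress genes, -0.48 for the mitochondrial ribosomal proteins and 0.12 for all tested genes.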

How the data were processed

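Expected counts for each well were deposited by the authors without scaling for depth. Per the submitters' processing notes, the tools were alevin and Salmon 1.5.1 and the build was GRCh38.p13. Primers carry no molecular identifier, so counts are reads after amplification. The study's design text states 2 plates for the first batch and 3 for the second, and plates were assigned to them from the runs of plate numbers, an inference. Wells with at least 0.1 of their plate's median total and 500 genes were kept (totals 19756 to 984418, median 514679), summed per group and batch, and rounded. Symbols came from Ensembl IDs, and transcript length is the longest coding transcript of GENCODE 29.

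Sums were fitted in R 4.3.3 with edgeR 4.0.16 (TMM, filterByExpr, 13560 genes, group and batch terms, 2 residual and 7.75 prior degrees of freedom), with two-sided quasi-likelihood tests in 8 contrasts, Benjamini-Hochberg adjusted over all genes and called under 0.05. Groups with 1 sum were assumed to vary like the others. The labels do not say that batches were separate cultures, so p-values may measure technical spread only. The replicate number is this batch, which is the block. Alternatives used DESeq2 1.42.0, limma 3.58.1, plates as units, other filters and left-out sums; wells with at least 100000 counts were added after seeing the data. TMM-normalised CPM are not adjusted for batch, unlike fold changes.

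The members and gene lists were chosen with earlier results of these data known. Every member may be named; values per sum are given for members called in any contrast and the 3 highest per class, and up to 2 called genes of a related list and contrast, those of the highest mean. Genes shown for what they did not do were chosen after their values were seen. SLC7A11 and other list genes at 0 in a group are counted, not described.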

Additional observations from a re-analysis of the deposited data

How the results depend on the processing

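Counts of members called were 13 (SAHA in J-Lat A2), 2 (PMA in J-Lat A2), 4 (SAHA in Jurkat), 2 (PMA in Jurkat), 2 (PMA against SAHA in J-Lat A2) and 0 (J-Lat A2 against Jurkat). With equal weight per cell they were 0 in each of the first 5, with 17, 13, 11, 9 and 12 members at an unadjusted p under 0.05; the lowest adjusted p of any gene with SAHA in J-Lat A2 was then 0.063. DESeq2's Wald test gave 14 for SAHA in J-Lat A2, 7, 9, 5 and 4 for the next comparisons in that order and 1 between the lines. Plates as units gave 14 for SAHA in J-Lat A2, then 8, 9, 8 and 5, and 1 between the lines. They also gave 1 for the difference in PMA response between lines (WARS1). The second batch alone gave 11 for SAHA in J-Lat A2, then 6, 8, 7 and 5, and 1 between the lines. Plates of a batch may share a culture. With no filter on low counts, PMA in Jurkat had 1 member. Without the replicate block, PMA in Jurkat had 1 and PMA against SAHA 1, and SAHA in J-Lat A2 10. Leaving out each batch sum in turn gave 7 to 13, 0 to 7, 0 to 5, 1 to 5, 1 to 4 and 0 to 1 members, in the order of the comparisons; the cause was not tested. The 23 called changes were refitted under 15 settings, 345 refits in all: 283 stayed past the threshold, 62 did not and 0 reversed. Wells with at least 100000 counts (387 wells), chosen after seeing the data, gave the same 6 counts. The class sums moved by less than the spread between batches under the 3 alternatives tried. The 3 groups in the second batch alone had a single sum, so their spread was taken from the other groups, and the median standard error of a mitochondrial gene (0.38 with SAHA in J-Lat A2) limits what could be detected.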
